A study of Mus musculus with 24 samples.

Results

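Of the 24 RNA sequencing libraries of whole back skin in the series, 15 were compared here: the 9 taken in the middle of the light phase (ZT4, ZT8 and ZT28) and the 6 taken in the middle of the dark phase (ZT16 and ZT20), where ZT is the time in hours after lights on. The libraries were chosen by sampling time alone. The 9 libraries at ZT0, ZT12 and ZT24, when the lights were being switched, entered no comparison and appear only in the plots by sampling time. All mice were wild type males of the strain C57BL/6NCrl at about 8 weeks of age, housed with lights on for 12 h a day, and their hair follicles were in telogen, the stage of rest. For 18 to 21 days they could eat during 4 h of each day. Food was given from ZT0 to ZT4 in the group called ED, from ZT5 to ZT9 in MD and from ZT12 to ZT16 in EN. Each group gave 3 mid-light and 2 mid-dark libraries. A library was 1 pool of RNA from 2 to 4 animals, and no time point of a group had more than 1 pool. The labels do not tell whether pools of different times came from separate animals, so all tests measure the spread between these pools.

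The comparison asks which transcripts of skin differ between day and night whatever the time of food. The 3 groups met light and food in different orders. In ED the mid-light pools were taken 4, 8 and 4 h after food was opened and the mid-dark pools 16 and 20 h after it. In EN the order was turned round, with 16, 20 and 16 h in mid-light and 4 and 8 h in mid-dark. MD had 23, 3 and 23 h in mid-light and 11 and 15 h in mid-dark. Light and hours since food thus ran in opposite orders in ED and EN.

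Skin follows the day through its own circadian clock, a loop in which CLOCK and BMAL1 switch on their own repressors and many output genes. The clock of a peripheral tissue can be moved by the time of food as well as by signals that follow the light. Dividing cells of the epidermis copy their DNA in S phase and then pass through G2 and mitosis, and the share of cells in each stage is known to vary with the time of day in mouse skin. Genes of mitosis are switched on late in the cycle through CCAAT boxes, bound by NF-Y, and a cell cycle homology region, with the core TTTGAA or in some genes TTTAAA, bound by a complex that FOXM1 joins. Histone genes are expressed in S phase and most of their messages end in a stem-loop and not in a poly(A) tail, so a total RNA kit such as the one used here can measure them.

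Promoters of 3 mitosis genes and 2 histone genes are shown because these lists are described in most detail below. The 5 windows hold 150 bases before the start used for each gene (GRCm38.p6), on the strand of the gene. The window of Top2a reaches a few bases into its gene as placed in RefSeq (chr11:98992947-99024199), and the others do not. Capitals mark CCAAT, which reads ATTGG when it lies on the opposite strand, and the core motif of the homology region on either strand. Each motif was searched on its own, so matches may overlap. The windows are Cdk1 at chr10:69352913-69353062 (minus strand), Top2a at chr11:99024190-99024339 (minus), Ccnb1 at chr13:100786487-100786636 (minus), Hist1h1a at chr13:23763518-23763667 (plus) and Hist1h2bb at chr13:23746584-23746733 (plus).
Cdk1: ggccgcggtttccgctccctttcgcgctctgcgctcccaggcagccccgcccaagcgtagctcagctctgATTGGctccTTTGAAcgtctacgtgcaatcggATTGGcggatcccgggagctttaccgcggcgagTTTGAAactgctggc
Top2a: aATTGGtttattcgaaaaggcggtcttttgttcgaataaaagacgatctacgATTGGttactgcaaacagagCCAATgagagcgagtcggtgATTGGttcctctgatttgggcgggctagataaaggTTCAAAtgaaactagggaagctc
Ccnb1: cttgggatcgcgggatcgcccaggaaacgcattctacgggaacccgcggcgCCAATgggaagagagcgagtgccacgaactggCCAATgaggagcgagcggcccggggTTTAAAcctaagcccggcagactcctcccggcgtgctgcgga
Hist1h1a: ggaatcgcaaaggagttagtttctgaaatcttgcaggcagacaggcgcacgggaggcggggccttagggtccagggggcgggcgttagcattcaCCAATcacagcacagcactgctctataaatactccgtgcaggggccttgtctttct
Hist1h2bb: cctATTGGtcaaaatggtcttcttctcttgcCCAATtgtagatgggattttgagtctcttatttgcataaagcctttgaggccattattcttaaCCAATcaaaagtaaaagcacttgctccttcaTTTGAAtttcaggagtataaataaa
The shares that follow were counted over the whole promoter sequence of each gene, which is longer than the 150 bases shown. Of the 31 genes on the mitosis list and the list of G2 and mitosis regulators, 24 had such a sequence. Of these, 21 (87.5%) held CCAAT and 21 (87.5%) a core of the homology region. Among 27025 promoter sequences of all genes the shares were 37.9% and 27.8%. Of the 53 histone genes 47 had a sequence, and 83.0% of them held CCAAT and 63.8% a core of the homology region. A match describes the letters of the sequence and not a bound site.

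Exon counts per library ranged from 13751005 to 26316851 over the 15 libraries. The skin markers were high in all of them, with Krt14 at 1038 to 1568 CPM (counts scaled to library size) and Col1a1 at 7912 to 26210 CPM. Whole back skin includes a sheet of skeletal muscle, and the summed level of 22 contraction genes ranged from 35320 to 90640 CPM in mid-light and from 28920 to 87870 CPM in mid-dark. Hair shaft genes summed to 34.8 to 90.8 CPM, and Krt31, a hair keratin, was at 0 to 1.22 CPM. The pools with high hair sums, ED at ZT24 with 1029 CPM and EN at ZT0 with 3041 CPM, were not among the 15. The summed level of the liver genes was 5.04 to 26.9 CPM in mid-light and 7.12 to 46.9 CPM in mid-dark, with Alb at 1.15 to 24.5 CPM. The short RNAs Rmrp and Rpph1, which carry no poly(A) tail, summed to 25940 to 68100 CPM in mid-light and 37110 to 90360 CPM in mid-dark.

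No gene passed the test of mid-light against mid-dark over the 3 groups. The quasi-likelihood test of edgeR with feeding group as a term called 0 of 16246 genes at an adjusted p under 0.05, which is 0% of those tested, and the smallest adjusted p was 0.226. At an unadjusted p under 0.05 there were 1631 genes (10.0%), of which 807 (4.97%) were higher in light and 824 (5.07%) higher in dark. DESeq2 called 71 of 16529 genes (0.430%), 29 (0.175%) higher in light and 42 (0.254%) higher in dark. limma on log2(RPKM + 0.1) called 0 genes, with 1709 at an unadjusted p under 0.05, and limma-voom called 0, with 1676. The standard error of the log2 difference had a median of 0.0999 over all genes. Below, "higher" and "lower" describe fitted values, and no single gene is a call of the edgeR test.

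The sign of the difference was the same in ED, MD and EN for 4608 of 16246 genes (28.4%). Of these, 2275 (14.0%) were higher in light and 2333 (14.4%) higher in dark. The number was between 4083 and 5233 when each of the 15 libraries was left out in turn. In 6 genes (0.0369%) all 9 mid-light libraries lay above all 6 mid-dark libraries, and these were Pfn2, B230118H07Rik, Clrz, Crym, March5 and Zswim7. In another 6 genes (0.0369%) all mid-dark libraries were higher, and these were Incenp, Foxm1, Nlgn3, Brd8, 2610020H08Rik and Arl10. With the libraries compared inside each feeding group, 50 genes (0.308%) did not overlap and were higher in light in all 3 groups, and 28 (0.172%) were higher in dark. Signs can agree in 3 groups, and libraries can separate, without a shared difference. How often that happened here was not tested, so these counts do not number the genes that follow the light.

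The histone genes had lower values in light than in dark. All 53 histone cluster genes tested had a log2 difference below 0, against 51.0% of all genes tested. Their median was -0.61, at -1.06 for ED, -0.35 for MD and -0.47 for EN, where the median of all genes was -0.0036. A total of 44 of the 53 had an unadjusted edgeR p under 0.05, all higher in dark, against 5.07% of all genes. The same sign in all 3 groups was found for 41, against 28.4% of all genes. DESeq2 called 42 genes higher in dark (0.254% of all genes), and 20 of these were histone genes. On the list of 14 histone genes drawn up with the other lists the median was -0.54. Of these, 10 of 14 had an unadjusted p under 0.05, all higher in dark, again against 5.07% of all genes. The set of 53 was taken after the data were seen. Members of this family are near-identical copies, so the level of a single gene is uncertain.

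The summed level of the 53 histone genes was lower in each mid-light pool of ED than in both of its mid-dark pools. In ED it was 783, 833 and 838 CPM at ZT4, ZT8 and ZT28, and 1416 and 1471 CPM at ZT16 and ZT20. EN had 897, 1185 and 1182 CPM in mid-light and 1594 and 1309 CPM in mid-dark, again without overlap. In MD the pools at ZT4 and ZT28 were low, at 623 and 580 CPM, but the pool at ZT8 stood at 1096 CPM, above the 811 and 1004 CPM of ZT16 and ZT20. That MD pool was taken 3 h after food was opened. Leaving it out gave 25 edgeR calls, 22 of them higher in dark and 19 of those 22 histone genes. Leaving out all 3 pools of ZT8 gave 24 calls, with 14 histone genes among the 16 higher in dark. Without the ED group the histone median was -0.40, with 17 of 53 at an unadjusted edgeR p under 0.05, against 44 with all groups. It was -0.77 without MD, with 45 of 53, and -0.69 without EN, with 30 of 53.

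Hist1h1a, a linker histone (chr13:23763668-23764412), had its largest log2 difference in ED, -1.65 ± 0.285 (SE). Its levels in ED were 23.1, 21.2 and 19.97 CPM in mid-light against 60.1 and 74.2 CPM in mid-dark. In EN they were 25.4, 42.3 and 43.2 CPM against 60.7 and 55.6 CPM, a log2 difference of -0.65 ± 0.285. In MD they were 16.9, 37.1 and 16.1 CPM against 35.1 and 41.8 CPM, and here the pool of ZT8 lay between the pools of the dark phase. Over the 3 groups its log2 difference was -1.02 ± 0.186, with an edgeR adjusted p of 0.226.

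Hist1h3f, a core histone of the H3 class, ranged from 20.4 to 44.6 CPM in mid-light with a median of 28.6, and from 31.4 to 50.9 CPM in mid-dark with a median of 46.3. Its log2 difference was -0.58 ± 0.116, and the adjusted p was 0.226 by edgeR and 0.00452 by DESeq2, in a range of 0.00452 to 0.525 over 34 alternatives. Hist1h2bb and Hist1h2ak, core histones of the H2B and H2A classes, had log2 differences of -0.86 ± 0.175 and -0.89 ± 0.180. The 2 members of the fixed list with the highest mean CPM were closer to 0. These were the linker histones Hist1h1c, at -0.17 ± 0.0907, and Hist1h1e, at -0.29 ± 0.0982, and Hist1h1c did not have the same sign in the 3 groups.

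Some other measures of the libraries were high or low in the same pools as the histones, though not in all. Summed Rmrp and Rpph1 were 51700, 56240 and 57430 CPM in mid-light and 90360 and 53120 CPM in mid-dark in ED. In MD they were 27200, 54610 and 25940 CPM against 37110 and 42450 CPM, so that the ZT8 pool of MD was high in both measures. The MD pools, light and dark together, stood in the same order in both measures. In EN they were 58640, 68100 and 66950 CPM against 83950 and 65770 CPM. The pools of ZT20 in ED and EN, with high histone sums, lay within the mid-light range of their group. The pools of ZT16 in ED and EN, also with high histone sums, lay above it. Summed muscle contraction genes were at 54180, 40610 and 76770 CPM in mid-light and 35490 and 28920 CPM in mid-dark in ED, without overlap. They were at 84620, 86380 and 90640 CPM against 87870 and 73550 CPM in MD, and at 79200, 35320 and 49690 CPM against 40850 and 42860 CPM in EN, with overlap in both. With log2 of summed Rmrp and Rpph1 as a further term the histone median was -0.45, with 32 of 53 at an unadjusted edgeR p under 0.05. It was also -0.45 with the muscle level as a term, with 22 of 53, and with both terms it was -0.29, with 23 of 53. The part of these measures in the histone difference was not tested. Fewer cells of a type and less RNA per cell cannot be told apart in these bulk samples.

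**Figure D1:**
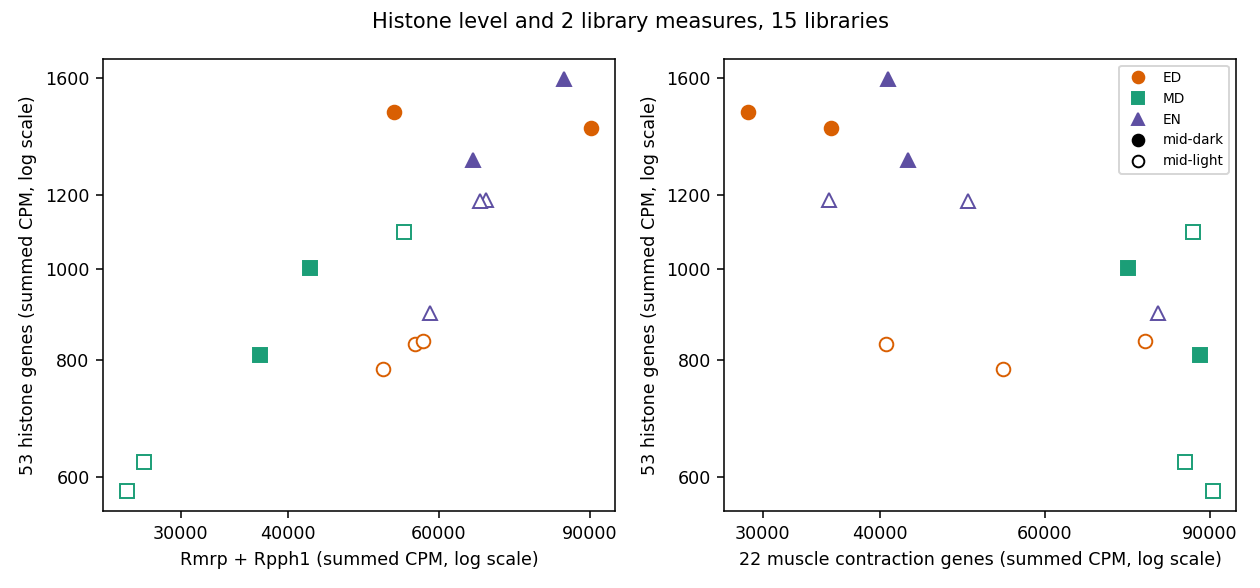
Summed CPM of the 53 histone genes (vertical axis, log scale) against summed Rmrp and Rpph1 (left) and summed muscle contraction genes (right), both on log scales, with 1 point per library, filled for mid-dark and open for mid-light. The 3 mid-light pools of ED lie between 783 and 838 CPM of histone genes at Rmrp and Rpph1 levels (51700 to 57430 CPM) close to that of the ED pool of ZT20 (53120 CPM), which has 1471 CPM. The ED pool of ZT16, with 1416 CPM of histone genes, lies to their right at 90360 CPM. In the left panel the MD pools stand in the same order on both axes, light and dark together. They run from 580 CPM of histone genes at 25940 CPM to 1096 CPM at 54610 CPM. In EN the pool of ZT4 is lowest and that of ZT16 highest on both axes.

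Genes of G2 and mitosis were lower in mid-light as well. The 24 mitosis genes tested all had a log2 difference below 0, against 51.0% of all genes. Their median was -0.30 (ED -0.34, MD -0.50, EN -0.09) beside -0.0036 for all genes. An unadjusted edgeR p under 0.05 was found for 12 of 24, all higher in dark, against 5.07% of all genes. The same sign in the 3 groups was found for 14, against 28.4% of all genes. A further 7 regulators were put together after the data were seen, because they stood near the top of the list: Foxm1, Incenp, Ccna2, Espl1, Ndc80, Esco2 and Shcbp1. Their median of -0.54 is therefore only a description. Of the 24 mitosis genes 2 were called by DESeq2 as higher in dark, against 0.254% of all genes.

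Foxm1 (chr6:128362994-128375886), the transcription factor that drives the late cell cycle program, did not overlap between the 9 light and the 6 dark libraries. In ED it was at 5.41, 4.57 and 4.85 CPM in mid-light and at 6.07 and 7.36 CPM in mid-dark. MD had 4.74, 5.71 and 4.18 CPM against 7.12 and 8.25 CPM, and EN had 5.32, 3.83 and 5.96 CPM against 7.17 and 7.16 CPM. The difference was -0.45 in ED, -0.66 in MD and -0.51 in EN, each with a standard error of 0.204. Over all groups the log2 difference was -0.54 ± 0.113. The adjusted p was 0.226 by edgeR and 0.00990 by DESeq2, in a range of 0.00990 to 0.505 over 34 alternatives.

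Incenp (chr19:9872295-9899489), the scaffold of the chromosomal passenger complex that carries Aurora B in mitosis, showed the same separation. Its mid-light values ran from 9.20 to 13.9 CPM and its mid-dark values from 15.2 to 19.3 CPM. The log2 difference was -0.52 ± 0.104, with an edgeR adjusted p of 0.226 and 0.00363 by DESeq2, in a range of 0.00363 to 0.454 over 34 alternatives. Ccna2, which encodes cyclin A2, the cyclin of S phase and G2, had -0.53 ± 0.127, with -0.60 in ED, -0.72 in MD and -0.26 in EN.

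Cdk1 (chr10:69335146-69352912), the kinase that starts mitosis and whose window above holds 2 CCAAT boxes and 2 TTTGAA motifs, was highest in the ED pool of ZT20 among the 15 libraries compared. It stood at 6.11, 5.42 and 6.95 CPM in mid-light and at 8.51 and 12.8 CPM in mid-dark in ED, and at 6.91, 7.20 and 8.57 CPM against 7.62 and 10.4 CPM in EN, where the phases overlapped. MD had 4.30, 4.92 and 4.47 CPM against 6.12 and 8.45 CPM. The log2 difference was -0.58 ± 0.128. Top2a, the topoisomerase that untangles sister chromatids and 1 of the 2 mitosis genes with the highest mean CPM, had -0.56 ± 0.130 and did not overlap inside any feeding group. Mki67, the proliferation marker Ki-67 and the other of these 2, had -0.33 ± 0.137.

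The mitosis genes had higher values at ZT20 than at ZT16 in each group, an order that was not tested. Measured from the mean of the mid-light pools, the list median was 0.01 at ZT16 and -0.76 at ZT20 in ED, -0.33 and -0.57 in MD, and 0.07 and -0.29 in EN. For the 7 regulators the values were -0.37 and -0.83 in ED, -0.49 and -0.76 in MD, and -0.51 and -0.52 in EN. For the histones the order differed between the groups, with -0.94 and -1.03 in ED, -0.23 and -0.68 in MD, and -0.63 and -0.44 in EN. Without the pools of ZT16 the median of the mitosis list was -0.54, with 21 of 24 at an unadjusted p under 0.05, and without those of ZT20 it was -0.14, with 3 of 24. Without those of ZT8 the count was 7. Leaving out the ED pool of ZT20 alone gave -0.20, with 5 of 24. Ccnb1, which encodes the mitotic cyclin B1, and Cenpf, a kinetochore protein, had log2 differences of -0.27 ± 0.205 and -0.22 ± 0.200 and turned to 0.20 and 0.14 without the pools of ZT20. The ED pool of ZT20 had the highest mitosis sum of the 15 libraries, 568 CPM, and the lowest muscle sum. With the muscle term the mitosis median was -0.43, with the Rmrp and Rpph1 term -0.37, and with both -0.48.

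**Figure D2:**
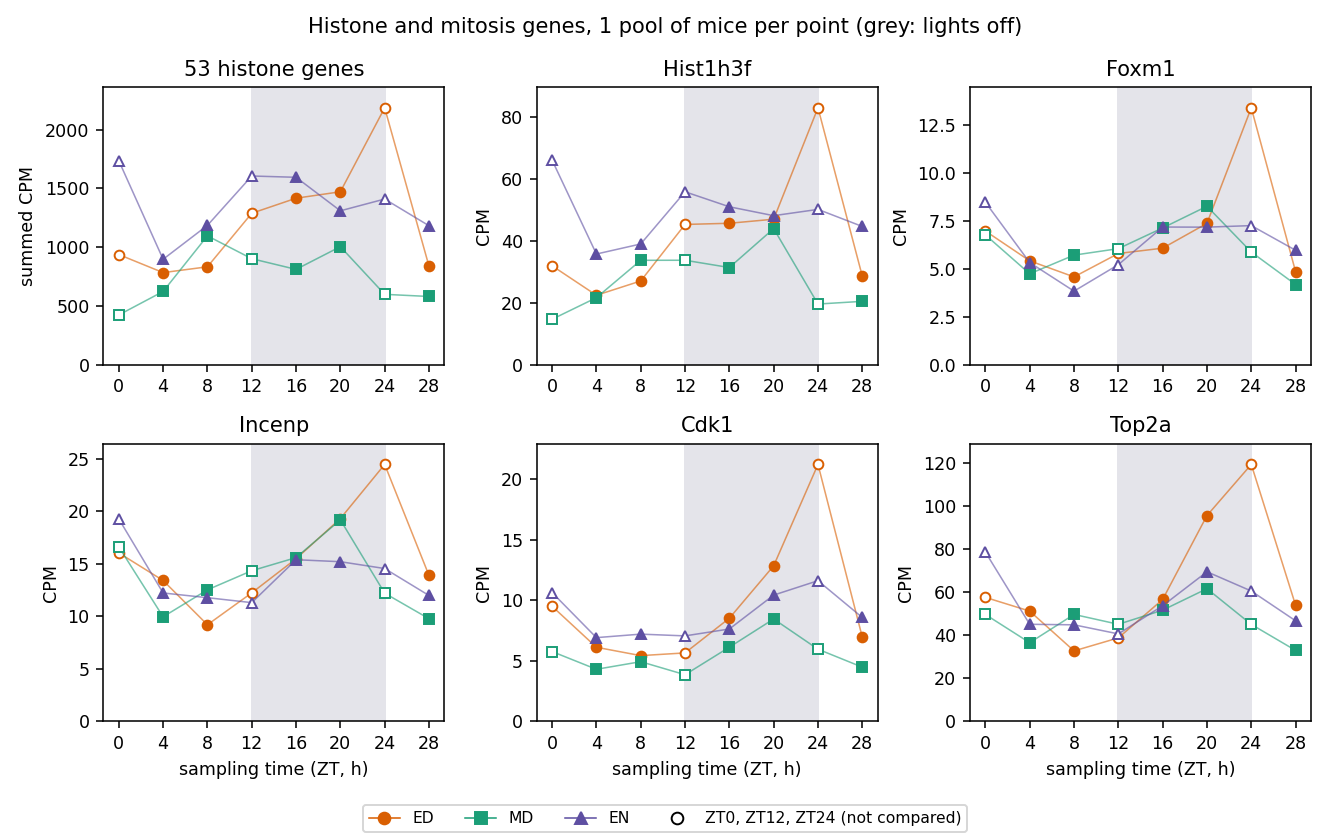
CPM (vertical axes, starting at 0) of the 53 histone genes summed and of 5 cell cycle genes against sampling time in hours of ZT, with 1 point per pool, filled for the 15 libraries compared and open for the others. Every filled point of Foxm1 and Incenp in the grey night exceeds every filled point outside it, and the open ED point at ZT24 is the highest of each panel. That ED pool also had a high sum of hair shaft genes, 1029 CPM.

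DNA replication genes lay on both sides of 0. Of 29 tested, 17 were above and 12 below 0, the median was 0.05 (ED -0.22, MD 0.40, EN -0.05), and 1 had an unadjusted edgeR p under 0.05. That gene was Rrm2, the small subunit of ribonucleotide reductase, with -0.37 ± 0.108 and the same sign in all groups. The 2 with the highest mean CPM were Pcna, the sliding clamp of the polymerases, at 0.05 ± 0.101, and Rrm1, the large subunit, at -0.01 ± 0.0749. In MD, Pcna stood at 49.3, 60.0 and 52.7 CPM in mid-light against 36.0 and 48.7 CPM in mid-dark, whereas in EN it was at 50.9, 71.8 and 62.1 CPM against 69.0 and 68.2 CPM.

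Intron reads, which come mostly from unspliced transcripts, were tested in the same way. edgeR called 0 of 15152 intron rows, with 1104 (7.29%) at an unadjusted p under 0.05, 3.50% higher in light and 3.78% higher in dark. The 24 mitosis genes had an intron median of -0.28, close to their exon median, and 8 of them had an unadjusted p under 0.05, all higher in dark. For the 7 regulators, put together after the exon values of the same libraries were seen, the intron median of -0.56 is only a description. Mki67 had an intron difference of -0.57 and Top2a of -0.41. Histone genes have no introns as a rule, and 2 of the 53 had an intron row that passed the filter.

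Among genes with higher values in light, Pfn2 (chr3:57841895-57847757), which encodes the actin-binding protein profilin 2, had the smallest p of all genes. It was at 28.2, 31.8 and 29.5 CPM in mid-light and at 23.2 and 22.03 CPM in mid-dark in ED, at 36.1, 34.1 and 34.2 CPM against 21.1 and 25.3 CPM in MD, and at 30.5, 30.6 and 27.6 CPM against 23.0 and 27.1 CPM in EN. No mid-light pool fell under a mid-dark pool, although the EN pools of ZT28 and ZT20 were close. The log2 difference was 0.41 ± 0.0712 with an edgeR adjusted p of 0.226, and 0.00105 by DESeq2, in a range of 0.00105 to 0.612 over 34 alternatives. With the muscle term it was 0.43.

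Cfl2 (chr12:54858815-54862877), the cofilin of muscle that severs actin filaments, had 0.35 ± 0.0686 and did not overlap inside any feeding group. Its values were 95.4, 91.8 and 113 CPM against 73.1 and 66.0 CPM in ED, 109, 107 and 111 CPM against 84.1 and 89.3 CPM in MD, and 102, 81.3 and 88.9 CPM against 76.2 and 81.2 CPM in EN. The EN pools of ZT8 and ZT20 were nearly equal. Timm17a, part of the channel that imports proteins into mitochondria, had 0.35 ± 0.0722 and also did not overlap inside any group. Lmod3, a nucleator of actin filaments in muscle, had 0.77 ± 0.153, and 0.39 with the muscle term.

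Ccl11 (chr11:82057832-82062955), the chemokine eotaxin that attracts eosinophils, was higher in mid-light in all 3 groups. It was at 28.1, 23.9 and 23.2 CPM against 19.9 and 17.9 CPM in ED, at 23.8, 15.3 and 30.7 CPM against 12.6 and 13.9 CPM in MD, and at 23.0, 30.8 and 17.3 CPM against 14.7 and 13.3 CPM in EN. The light and dark pools did not overlap inside any group, and the difference was 0.66 ± 0.138, with an edgeR adjusted p of 0.226. DESeq2 gave 0.00888, in a range of 0.00888 to 0.742 over 34 alternatives. Crym, a crystallin family protein that binds thyroid hormone, was low, at 1.22 to 2.48 CPM in mid-light and 0.688 to 1.21 CPM in mid-dark, with a difference of 0.90 ± 0.190.

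**Figure D3:**
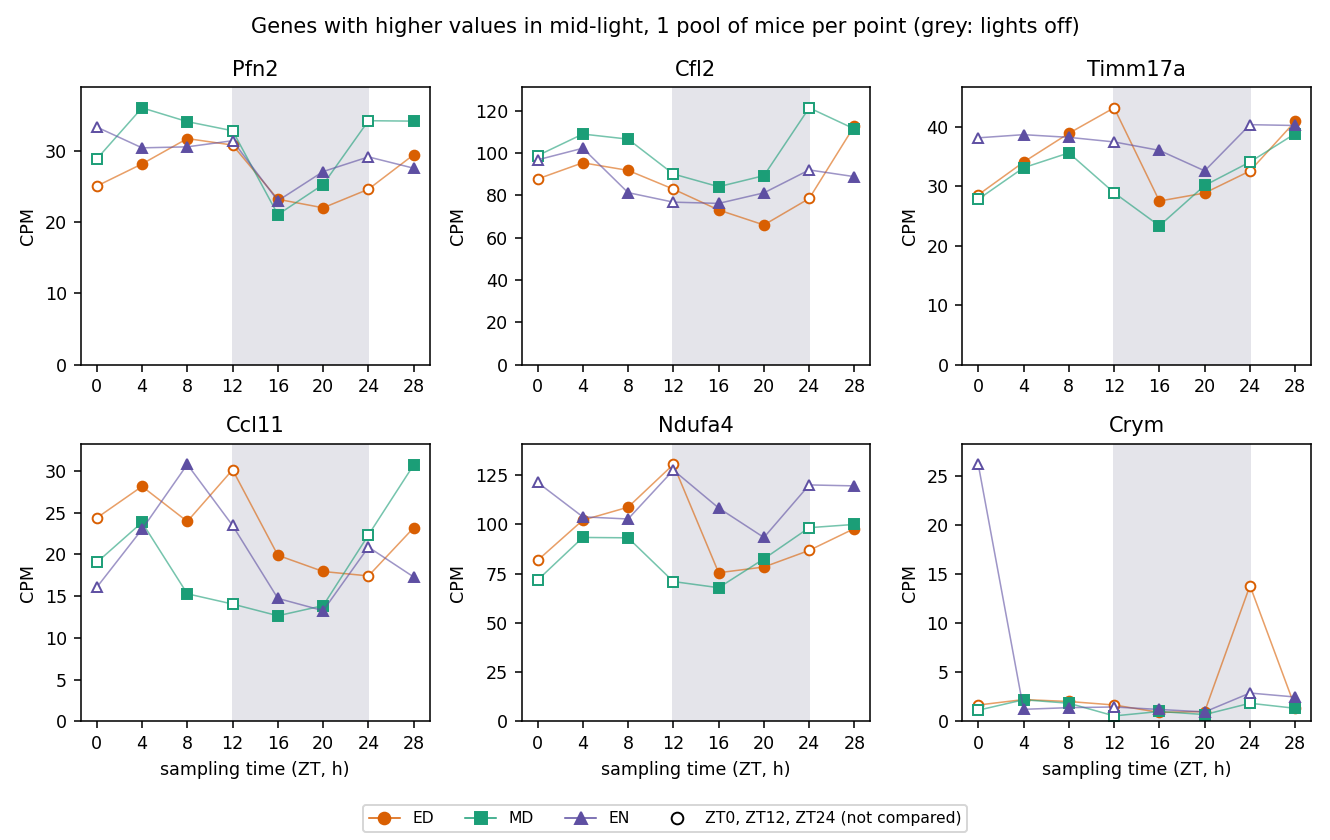
CPM (vertical axes, starting at 0) of 6 genes with higher values in mid-light against sampling time in hours of ZT, with 1 point per pool, filled for the 15 libraries compared and open for the others. For Pfn2 every filled point in the grey night lies under every filled point outside it, while Crym is low in all 15 pools compared and reaches 26.2 and 13.8 CPM in 2 open pools. These are EN at ZT0 and ED at ZT24, the pools with high hair sums.

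Subunits of the respiratory chain and the ATP synthase were slightly higher in light. All 25 on the list had a log2 difference above 0, where 51.0% of all genes were below 0. Their median was 0.18, and 14 had an unadjusted edgeR p under 0.05, all higher in light, against 4.97% of all genes. The count was 4 without the pools of ZT16 and 9 without the ED pool of ZT20. The same sign in 3 groups was found for 17, against 28.4% of all genes. Without the ED group 3 of 25 had an unadjusted edgeR p under 0.05, with a median of 0.06. There were 16 without MD, with a median of 0.24, and 14 without EN, with a median of 0.24. The difference was larger in ED, with a median of 0.42, than in MD and EN, with 0.06 in each, and this was not tested for the list. In the edgeR test between feeding groups 11 of the 25 genes had an unadjusted p under 0.05, against 8.05% of all genes. That test called 0 of the 25. Mid-light minus ZT16 and mid-light minus ZT20 had medians of 0.36 and 0.40 in ED. They were 0.18 and -0.03 in MD, and 0.11 and 0.04 in EN. Ndufa4 and Cox7b, subunits of the respiratory chain, had 0.29 ± 0.0671 and 0.29 ± 0.0723. Uqcrb, a subunit of complex III that is not on the list, had 0.30 ± 0.0720. The 2 members with the highest mean CPM, the ATP synthase subunits Atp5b and Atp5a1, had 0.18 ± 0.0715 and 0.14 ± 0.0707.

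The contraction genes of skeletal muscle, a tissue rich in mitochondria, also had higher values in light. All 22 had a difference above 0, where 51.0% of all genes were below 0. Their median was 0.41 (0.84 in ED, 0.06 in MD and 0.40 in EN). Of the 22, 10 had an unadjusted p under 0.05, all higher in light (4.97% of all genes), and 14 had 1 sign in the 3 groups (28.4% of all genes). The count of 10 was 3 without the ED pool of ZT20 and 18 without the MD pool of ZT16 or the EN pool of ZT8. It was 4 without all pools of ZT28, 6 without ZT16, 1 without ZT20 and 21 without ZT8. Without the ED group the count was 0 and the median 0.22. The count was 13 without MD, with a median of 0.61, and 10 without EN, with a median of 0.46. Ttn, the giant spring protein of the sarcomere, had 0.45 ± 0.221, Myh4, a fast myosin heavy chain, 0.41 ± 0.215, and Tnnc2, the fast troponin C, 0.57 ± 0.155. The sums were high in all 5 pools of MD, from 73550 to 90640 CPM, and from 28920 to 79200 CPM in ED and EN. With the muscle sum as a term the median of the contraction genes was -0.02, as the term itself requires, and that of the 25 respiratory genes was 0.13. Ndufa4 was at 0.31 with that term. Slow fibre genes went the other way, with a median of -0.41 over 10 genes, none at an unadjusted p under 0.05.

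Single genes with lower values in light lay outside the cell cycle too. Tppp3, a tubulin-binding protein, was at 68.3, 66.3 and 76.0 CPM against 109 and 97.7 CPM in ED, at 60.3, 101 and 62.1 CPM against 135 and 94.0 CPM in MD, and at 75.3, 66.8 and 93.8 CPM against 134 and 149 CPM in EN. In ED and EN the phases did not overlap, and in MD the pool of ZT8 was above that of ZT20. Its log2 difference was -0.68 ± 0.114, with an edgeR adjusted p of 0.226 and 0.000273 by DESeq2, in a range of 0.000273 to 0.706 over 34 alternatives. Dock8, a guanine nucleotide exchange factor of immune cells, had -0.26 ± 0.0573, and Brd8, a bromodomain protein, -0.25 ± 0.0577. Ace, the angiotensin-converting enzyme of blood vessels, had -0.30 ± 0.0738 and Cpm, a membrane carboxypeptidase, -0.49 ± 0.110. Nlgn3, a synaptic adhesion protein, ran from 1.53 to 2.69 CPM in mid-light and from 2.84 to 3.73 CPM in mid-dark, with -0.67 ± 0.144.

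Of 20 clock genes, 4 had 1 sign in ED, MD and EN, beside 28.4% of all genes, and the median was -0.22 in ED, 0.55 in MD and 0.07 in EN. At an unadjusted edgeR p under 0.05, 5 were higher in light (4.97% of all genes) and 3 higher in dark (5.07%). In the edgeR test between feeding groups 11 had an unadjusted p under 0.05, against 8.05% of all genes. Nr1d1, the repressor REV-ERB alpha, was the member with the largest shared difference, 1.83 ± 0.387, with an edgeR adjusted p of 0.335. It was at 44.6, 74.2 and 44.3 CPM against 37.3 and 10.7 CPM in ED, at 81.4, 31.6 and 89.6 CPM against 16.4 and 45.9 CPM in MD, and at 120, 84.9 and 81.6 CPM against 8.15 and 6.70 CPM in EN. The difference was 3.70 in EN, against 1.20 for ED and 1.12 for MD (SE 0.506 each). Bhlhe40, the repressor DEC1, had 0.54 ± 0.140, with 1 sign in the 3 groups. The 2 clock genes with the highest mean CPM did not keep 1 sign: Tef, a PAR bZIP output factor, had -0.70 in ED, 1.43 in MD and 0.67 in EN. Clock itself had 0.21, -0.28 and -0.36 in the same order.

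Genes that answer to steroid hormones and to stimuli had mostly lower values in light, with 18 of 20 glucocorticoid response genes and 19 of 20 immediate early genes below 0 (51.0% of all genes). Glucocorticoid response genes had a median of -0.28, with 1 of 20 at an unadjusted edgeR p under 0.05 (10.0% of all genes), and the median was 0.07 without the pools of ZT16 and -0.57 without those of ZT20, with 10 of 20 at an unadjusted p under 0.05. Without the MD pool of ZT20 alone that count was 8. Their 2 members with the highest mean CPM were the glutamine synthetase Glul, at -0.25 ± 0.175, and Tsc22d3, the leucine zipper protein GILZ, at -0.71 ± 0.336. Of 20 immediate early genes 6 had an unadjusted p under 0.05, all higher in dark (5.07% of all genes), with a median of -0.18 (-0.34 in ED, -0.30 in MD and -0.03 in EN). The count was 12 without the MD pool of ZT20, 15 without all pools of ZT20 (median -0.34) and 1 without those of ZT16 (median -0.07). Fos and Fosb, subunits of AP-1, had -0.76 ± 0.221 and -0.95 ± 0.288, Nr4a1, an orphan nuclear receptor, -0.53 ± 0.165, and Egr1, a zinc finger factor, -0.36 ± 0.125. Klf4 and Junb, the 2 with the highest mean CPM, had -0.08 ± 0.0892 and -0.20 ± 0.0991. Heat shock proteins had a median of -0.08 and 0 of 21 at an unadjusted p under 0.05, with 0.30 in ED and -0.40 in EN. The cold-induced Rbm3 and Cirbp, which bind RNA, had 0.34 ± 0.163 and 0.27 ± 0.239, both below 0 in ED and above 0 in MD and EN.

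Of all genes, 4.97% had an unadjusted edgeR p under 0.05 and were higher in light, and 5.07% were higher in dark, and the counts of structural and immune genes stand beside these shares. Collagens of the dermis had a median of -0.21, with 4 of 16 at an unadjusted p under 0.05, all higher in dark, a count of 9 without the pools of ZT8 and 1 without those of ZT20. Col1a1 and Col1a2, the chains of type I collagen, had -0.29 ± 0.189 and -0.22 ± 0.174, and Col6a1, a chain of type VI collagen, -0.26 ± 0.0877. Class II antigen and macrophage genes had a median of -0.15 and 4 of 17 at an unadjusted p under 0.05, all higher in dark, among them Cd14, a co-receptor for bacterial lipopolysaccharide, at -0.45 ± 0.134, and C1qb, a chain of complement C1q, at -0.39 ± 0.119. Cd74 and H2-Aa, of class II antigen presentation, had -0.19 ± 0.106 and -0.08 ± 0.125. Basal keratinocyte genes had a median of 0.02 with 1 of 12, and genes of the cornified envelope -0.0016 with 1 of 22. Cytosolic ribosomal proteins had 0.03 with 0 of 25. Hair shaft genes had 0.32 with 5 of 11, higher in light, and their sum was highest in the ZT8 pools of MD and ED, at 90.8 and 86.8 CPM. Of 19 p53 targets 3 had an unadjusted p under 0.05 and were higher in light and 1 was higher in dark, and Ccng1, a cyclin induced by p53, had 0.37 ± 0.103. Liver genes, a list added after the data were seen, had a median of -1.39 with 5 of 11 at an unadjusted p under 0.05, higher in dark. The part of hair and liver RNA in other results was not tested.

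**Figure D4:**
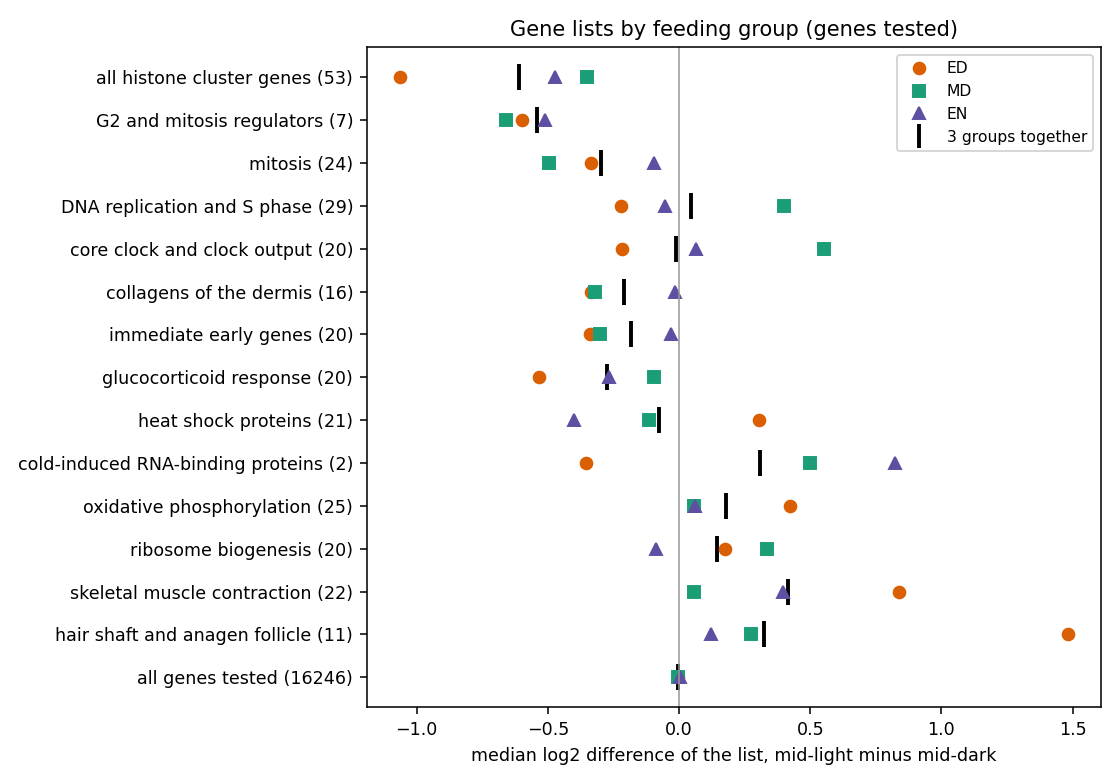
Median log2 difference (horizontal axis, mid-light minus mid-dark) of the genes of 14 lists and of all 16246 genes tested, with a symbol for each feeding group and a bar for the 3 groups together. The histone, G2 and mitosis lists lie left of 0 in ED, MD and EN, whereas the clock, heat shock and cold-induced lists have groups on both sides of 0. The 53 histone genes and the 7 G2 and mitosis regulators were put together after the data were seen, so their places are only a description.

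In the edgeR test the difference between mid-light and mid-dark differed between the feeding groups for 4 genes, a count that changed with the method and the libraries used. The edgeR test of feeding group by phase called 4 of 16246 genes (0.0246%), with 1307 (8.05%) at an unadjusted p under 0.05. At that unadjusted level the shares differed between lists. There were 11 of 20 clock genes, 13 of 17 endoplasmic reticulum chaperones, 13 of 25 genes of fatty acid and triglyceride synthesis and 9 of 21 heat shock proteins. There were 0 of 24 mitosis genes, 2 of 53 histone genes and 2 of 22 contraction genes. Cpt1a, which brings fatty acids into mitochondria, was lower in light in ED (-0.98 ± 0.112) and MD (-0.41 ± 0.112) and higher in EN (0.73 ± 0.112). It stood at 49.7, 50.7 and 53.5 CPM against 109 and 93.9 CPM in ED and at 101, 104 and 86.7 CPM against 59.5 and 58.1 CPM in EN, so in both groups it was higher in the pools taken 16 h or more after food was opened. In MD the pools 23 h after it, at 88.2 and 82.8 CPM, were below those at 11 and 15 h, with 114 and 101 CPM.

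Gsta3, a glutathione S-transferase, had the opposite order, with 0.69 ± 0.175 in ED, 0.53 ± 0.175 in MD and -1.59 ± 0.175 in EN. In EN it was at 15.5, 14.9 and 15.1 CPM in mid-light and at 55.2 and 36.6 CPM in mid-dark. Pnpla3, an acyltransferase and lipase of lipid droplets, had 0.84 ± 0.136 in ED, -0.10 ± 0.136 in MD and -0.73 ± 0.136 in EN. Klb, the co-receptor for FGF21, had 2.01 ± 0.290 in ED, -1.06 ± 0.290 in MD and -0.20 ± 0.290 in EN. In ED, Klb was at 13.2, 14.8 and 9.11 CPM in mid-light and at 2.86 and 3.27 CPM in mid-dark.

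The adjusted p of edgeR for the difference between groups was 0.000332 for Cpt1a and 0.000366 for Gsta3, and each lost its call under 1 of 27 alternatives, the fit to all 24 libraries (0.563 and 0.267). For Pnpla3 it was 0.00568, and the call was lost under 6, among them leaving out the ED pool of ZT16 (0.129) or of ZT20 (0.126). For Klb it was 0.0300, and the call was lost under 14 of 27, among them leaving out any of 7 single pools. Those were the ED pools of ZT4 (0.117), ZT8 (0.0863), ZT16 (0.325) and ZT20 (0.502), the MD pools of ZT4 (0.0830) and ZT28 (0.0945) and the EN pool of ZT28 (0.0991). None of the 4 changed the sign of its difference between EN and ED in these fits.

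**Figure D5:**
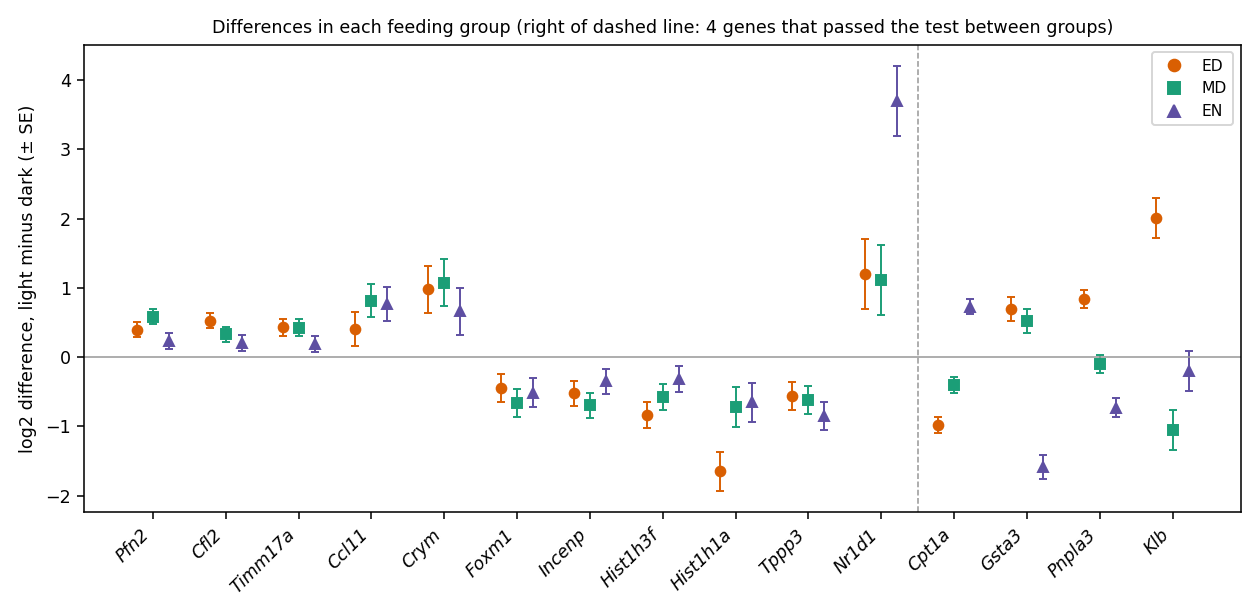
Log2 difference between mid-light and mid-dark (vertical axis) with its standard error for 15 genes in each feeding group. For the genes from Pfn2 to Nr1d1 the 3 groups lie on 1 side of 0, and for the 4 genes right of the dashed line they do not. The former were chosen after their values were seen and the 4 by smallest p between groups. The contrast is therefore only a description.

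In the labels each library carries a code from L1 to L8, whose meaning is not stated, and in ED and MD no code was shared by a mid-light and a mid-dark pool. In EN the pools of ZT8 and ZT16 shared L7 and those of ZT28 and ZT20 shared L8. Between pools with the same code the histone median was -0.46 and -0.22 and the mitosis median -0.10 and -0.18. Foxm1 had -0.89 and -0.26, Incenp -0.38 and -0.34, Tppp3 -1.003 and -0.67, Ccl11 1.06 and 0.38, and Pfn2 0.41 and 0.02. Of 62 named genes, leaving aside the 4 that differed between groups, 42 had the sign of the fit over all groups in both pairs and 14 in 1 pair. The other 6, in neither pair, were Ccnb1 (0.38 and 0.10), Junb (0.14 and 0.39), Fos (0.08 and 0.20), Angptl4, a secreted inhibitor of lipoprotein lipase (0.32 and 0.51), Cd74 (0.26 and 0.14) and H2-Aa (0.34 and 0.06). These are differences between single pools and carry no test. The contraction genes had -0.24 and 0.28, on both sides of 0. For ED and MD the code and the phase cannot be told apart.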

How the data were processed

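Total RNA of whole back skin was sequenced with a stranded kit, per the labels' protocols, from pools with an RNA integrity number above 6.5. The deposited table holds whole-number read counts for exon, intron and antisense rows of 31872 gene models, per the file headers. A second deposited table holds RPKM values made by the authors with cqn, per the file name. The submitters' processing notes list TopHat2, SAMtools, HOMER and the build mm10, with no versions, and how reads with several matches were counted is not stated there. Each column matched 1 library title.

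Of rows with the same symbol the one with the highest total was kept (29758 symbols). filterByExpr (minimum count 10, total 15) kept 16246 genes. TMM scaling was used. CPM and fitted log2 differences (mid-light minus mid-dark) came from edgeR 4.0.16 in R 4.3.3. Their standard errors came from limma 3.58.1, fitted with the same design to log2 CPM (prior count 2). Each ± value thus sets a limma standard error beside an edgeR difference. The quasi-likelihood model had feeding group and phase (11 residual degrees of freedom), or 6 group-by-phase means (9 degrees), with Benjamini-Hochberg adjustment. Levels at ZT0, ZT12 and ZT24 were scaled over 24 libraries. Alternatives used DESeq2 1.42.0, tests by limma on log2(RPKM + 0.1) and limma-voom, other scalings and filters, terms for hours since food, and libraries left out. The scripts were tested on simulated data.

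The comparison, members and 46 gene lists were chosen with earlier results of these data known. The rule for naming genes took calls first, and where a list had none its 2 members with the highest mean CPM, plus the 4 genes of smallest p in the test between feeding groups. As edgeR made no call, all other single genes were chosen after their values were seen. Lists are described by counts and medians. Coordinates were looked up by symbol in RefSeq for GRCm38.p6, which has the chromosome sequences of mm10.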

Additional observations from a re-analysis of the deposited data

Results flagged for a closer look

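The following values stood apart among the libraries of 1 phase by Dixon's test, or differed between feeding groups in the edgeR test. Of 140 sets of 6 or 9 libraries examined, 5 held a library that stood apart, where chance gives about 1 in 20. Among the 6 mid-dark libraries, Hist1h3f was lowest in MD at ZT16, at 31.35 CPM, with the others between 43.91 and 50.95 CPM. The ED pool of ZT20 was highest for 2 mitosis genes, Mki67 at 148.7 CPM (others 77.89 to 94.55) and Nusap1, which binds spindle microtubules, at 17.94 CPM (others 8.303 to 9.845). Clock was lowest in ED at ZT16, at 90.98 CPM (others 115 to 131.5), and Fos was lowest in MD at ZT20, at 36.99 CPM (others 81.96 to 116). Without the ED pool of ZT20 the median of the mitosis list was -0.20.

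The log2 difference between mid-light and mid-dark in EN minus that in ED was 1.712 for Cpt1a, -2.28 for Gsta3, -1.572 for Pnpla3 and -2.208 for Klb.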

How the results depend on the processing

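The count of genes called over the 3 feeding groups was 0 with edgeR and stayed 0 under 28 of 34 alternatives. It was 71 with DESeq2, 2 with food class as a term (1 in each direction), 1 with the cosine and sine of hours since food, 24 without ZT8 and 9 without MD. Over the 15 libraries left out in turn it ran from 0 to 25, the latter without the MD pool of ZT8. The count for the difference between feeding groups, 4 with edgeR, was 8 with no filter on low counts, 85 with DESeq2, 0 for all 24 libraries (947 at an unadjusted p under 0.05), 2 without ZT28, 22 without ZT8, 2 without ED, 30 without MD and 1 without EN. With single libraries left out it ran from 2 to 13: it was 13 without the MD pool of ZT8, 8 without that of ZT16 and 11 without that of ZT20, and 2 without either ED mid-dark pool. The terms for short RNAs and muscle were chosen after the data were seen. The cause of these shifts was not tested.

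Named genes kept their direction in 2076 of 2108 values under alternatives. Pcna turned to -0.053 in limma on RPKM, -0.015 with food class, -0.025 with hours since food, -0.057 without ZT8 and -0.10 without MD, and ran from -0.045 to 0.094 with single libraries left out. Rrm1 turned to 0.025 without ZT28, 0.063 without ED, 0.0082 without EN, 0.061 with the Rmrp and Rpph1 term, 0.090 with the muscle term and 0.15 with both, and ran from -0.063 to 0.022 with single libraries left out. Klf4 was 0.036 and Glul 0.18 without ZT16. Without ZT20, Ccnb1 was 0.20, Cenpf 0.14 and Tef -0.018. Klf4 was 0.0018 without ED, Tef -0.053 without MD and Cirbp -0.034 without EN. With the muscle term Myh4 was -0.14 and H2-Aa 0.097, and with both terms Hist1h1c was 0.034, Myh4 -0.19, Col1a2 0.016 and H2-Aa 0.012.

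No paired analysis was possible because replicate numbers here name sampling times within a phase, and do not tie a mid-light pool to a mid-dark pool. Pools are single, and pools of different sampling times served as replicates within a phase. The spread therefore also holds differences between sampling times and between hours since food. Differences near the median standard error of 0.0999 log2 units were not detectable. Larger ones were not called by edgeR either, such as 0.41 ± 0.0712 for Pfn2 and 1.83 ± 0.387 for Nr1d1. The lack of calls does not exclude differences of such sizes.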
